A study of Mus musculus with 8 samples.

Results

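Antimicrobial and antiprotease proteins secreted at the corneal surface were followed in RNA-seq of mouse corneas with dry eye. The set was given by name: Lcn2, Slpi, Defb1, Defb14, Camp, Ltf, Pigr, Reg3g, Wfdc2 and Wfdc12. Of these 10 genes, 8 were matched to rows of the 23597 genes in the table, and Camp and Reg3g were not analysed here. Dry eye was brought on in every animal by scopolamine, which blocks muscarinic receptors and lowers tear secretion, and corneas were taken at day 14. The 4 ICI samples came from mice that were also treated with ICI 118551, a blocker of β2-adrenergic receptors, and the 4 Scop samples from mice that were not. Each sample was a pool of 4 corneas, and no sample without scopolamine was analysed here, so no value below can be set against a normal cornea. The labels give no strain, age, sex, dose or route, nor the animals behind a pool, so a p-value measures only the spread between these pools.

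The surface of the cornea is wetted by tears and carries few resident bacteria. Its epithelium, the lacrimal gland and incoming leukocytes release small cationic peptides that disrupt bacterial membranes, proteins that withhold iron, and inhibitors that restrain the proteases of neutrophils. Many of these genes are known in other epithelia as targets of interleukin 17, interleukin 1, NF-kB and C/EBP factors. Dry eye is accompanied by ocular surface inflammation, and the study compared the scopolamine-treated cornea with and without block of the β2-adrenergic receptor.

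The values were FPKM, fragments scaled by transcript length and library depth, so levels of different genes can be set side by side. Depth, worked out from the spacing of FPKM values, lay between 34510508 and 40071182 fragments per library. The tissue label was borne out by its markers: the summed level of 19 corneal epithelial genes lay between 41535 and 47516 FPKM. Scop replicate 3 stood apart, with a summed level of 25 keratocyte and stromal genes of 1046 FPKM, against 2547 to 3546 in ICI and at least 2574 in the other Scop libraries. Its summed level of 14 genes of conjunctival epithelium and goblet cells was 1959 FPKM, against 1213 to 1370 in the other 7 libraries. Most of that sum was the keratin gene Krt13 in every library, with its values given under the other observations. In pooled tissue, fewer cells of a type and less RNA per cell cannot be told apart.

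In these corneas 2 of the 8 genes made up most of the summed level of the set. Defb1, a β-defensin that epithelia make without induction, and Wfdc2, a WAP-domain protein, together held between 91.9% and 93.5% of the summed FPKM of the 8 genes in every library. That sum was 287 ± 22.1 FPKM in the ICI libraries and 278 ± 11.1 in the Scop libraries (mean ± SD over n = 4 per group, here and below), with the lowest libraries at 268 and 266 and the highest at 314 and 289, so the groups overlapped. Over the 8 libraries Defb1 ranked 286th of all genes by mean FPKM and Wfdc2 ranked 765th. Ltf, Slpi and Lcn2 followed at ranks 5552, 6264 and 7616, Pigr at 10402, and Defb14 and Wfdc12 at 14782 and 15453.

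The order of neighbouring levels was clear at the top and not in the middle. Defb1 lay above Wfdc2, and Wfdc2 above Ltf, in 8 of 8 libraries, with ratios of the means of 2.56 and 8.67. Ltf exceeded Slpi in 6 of 8 libraries, the exceptions being ICI replicate 3 and Scop replicate 4, and Slpi exceeded Lcn2 in 6 of 8, the exceptions being Scop replicates 2 and 3, so these neighbours did not differ beyond the spread between libraries. Lcn2 lay above Pigr, and Pigr above Defb14, in every library. Defb14 and Wfdc12 overlapped, with Wfdc12 the higher in Scop replicate 3 and both genes at 0 in Scop replicate 4.

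**Figure D1:**
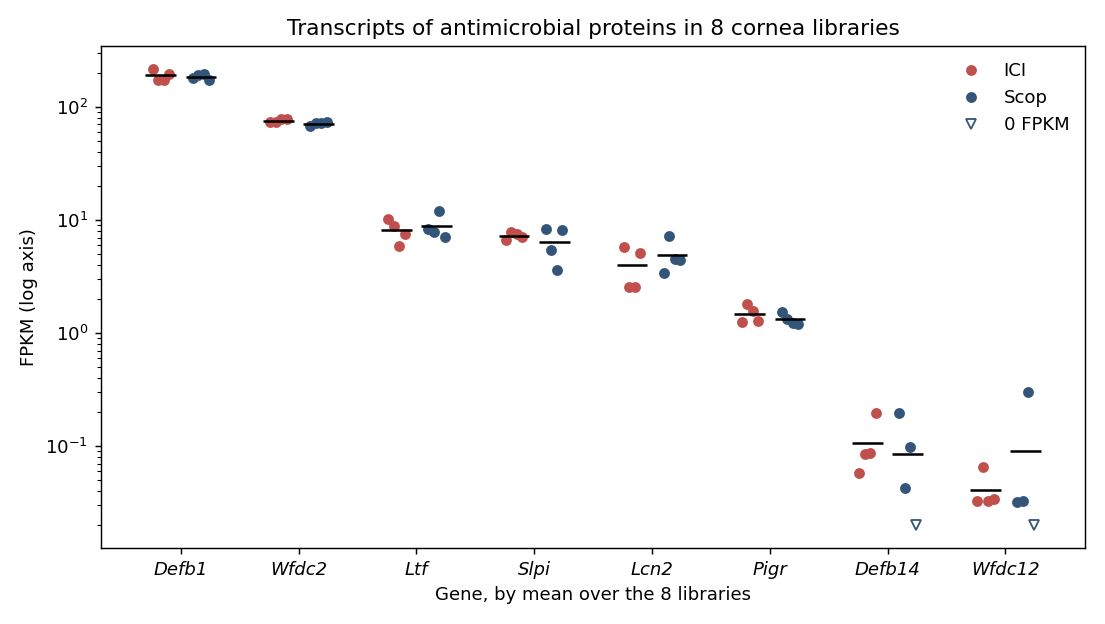
FPKM of the 8 genes in each library on a log axis, with 4 ICI and 4 Scop points per gene, short black lines for the group means (zeros included) and open triangles for libraries at 0. Defb1 and Wfdc2 lie well above the other genes, and the ICI and Scop points overlap for every gene.

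No gene of the set differed between ICI and Scop by the test used. Across all genes, limma on log2(FPKM + 1) called 0 of 12100 tested genes at an adjusted p under 0.05 (0%), and 12% of them had an unadjusted p under 0.05 (7.46% lower and 4.56% higher in ICI). That split, 903 lower and 552 higher, was 745 and 674 after median-ratio scaling and 717 and 728 after quantile normalisation. Without Scop replicate 4 the adjusted test called 4 genes higher and 2 lower, and without Scop replicate 1 or 3 it called 1 lower, none of them in the set. Of the 8 genes, 6 had a mean of at least 0.5 FPKM and were tested, and 0 of these 6 passed at either level. The groups were without overlap for 6.98% of all tested genes and for 0 of the 6. Of the 6, 4 had positive and 2 had negative log2 fold changes (ICI minus Scop), with a median of 0.06, against 44.6% positive and a median of -0.02 over all tested genes. By mean FPKM, 5 of the 8 genes were higher and 3 lower in ICI.

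Among the defensins, Defb1 was abundant and level. Defb1 (chromosome 8, 21776555 to 21795185 of the mm10 build, with gene limits here and below from RefSeq) stood at 217, 174, 173 and 197 FPKM in ICI replicates 1 to 4 and at 181, 192, 196 and 172 in Scop replicates 1 to 4. The highest library was ICI replicate 1 and the lowest Scop replicate 4, and the groups overlapped throughout. The means were 190.2 ± 20.9 and 185 ± 10.7 FPKM, a log2 fold change of 0.03 (SE 0.08, 95% interval -0.14 to 0.20, limma adjusted p = 0.891). As a fold on the log2(FPKM + 1) scale the interval ran from 0.908 to 1.15. The sign of this difference turned when ICI replicate 1 or Scop replicate 4 was left out (-0.03 and -0.0021).

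Defb14, a defensin that epithelia make on stimulation and the mouse counterpart of human β-defensin 3, was near the detection limit. It lies on the same chromosome as Defb1 (chromosome 8, 19160244 to 19195309). It rested on 4, 6, 6 and 13 fragments in ICI and on 14, 3, 6 and 0 in Scop, so both its highest and its lowest library were in Scop. The means were 0.106 ± 0.0610 and 0.0850 ± 0.0856 FPKM, below the 0.5 FPKM that limma was run on. An exact permutation test of the means, two-sided, gave p = 0.714, unadjusted, where 4 against 4 can give no less than 0.0286. In Scop replicate 4, 3 fragments would have been 0.0472 FPKM, so a level up to that value was not detectable there.

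The iron-binding pair, Ltf and Lcn2, was of moderate level and varied several times more than counting allows. Ltf encodes lactoferrin, which binds free iron and is a main protein of tears and of neutrophil granules (chromosome 9, 111019292 to 111042766). It stood at 10.2, 8.88, 5.88 and 7.46 FPKM in ICI and at 8.40, 7.84, 11.9 and 7.05 in Scop. Scop replicate 3 was the highest library and ICI replicate 3 the lowest. The means were 8.10 ± 1.86 and 8.81 ± 2.16 FPKM, with a log2 fold change of -0.11 (SE 0.17, 95% interval -0.49 to 0.28, limma adjusted p = 0.830). Without Scop replicate 3 the log2 fold change was 0.04 and without ICI replicate 3 it was 0.02, so its direction rested on either library.

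Lcn2 encodes lipocalin 2, which captures bacterial siderophores and so denies bacteria iron (chromosome 2, 32384637 to 32387739). It stood at 5.81, 2.55, 2.56 and 5.13 FPKM in ICI and at 3.42, 7.29, 4.48 and 4.39 in Scop. The ICI libraries fell apart into replicates 1 and 4, above all Scop libraries but replicate 2, and replicates 2 and 3, below all Scop libraries. The means were 4.01 ± 1.71 and 4.90 ± 1.67 FPKM, with a log2 fold change of -0.26 (SE 0.25, 95% interval -0.82 to 0.30, limma adjusted p = 0.705). The lowest ICI libraries each rested on 86 fragments (95% Poisson interval 68.8 to 106, covering counting error only) and Scop replicate 2 on 245 (215 to 278). The interval of the difference is wide, from 0.568-fold to 1.23-fold on the log2(FPKM + 1) scale, and so does not show that Lcn2 was alike in the groups. Leaving out 1 library at a time moved the log2 fold change between -0.43 (without ICI replicate 1) and -0.08 (without Scop replicate 2).

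Both genes are also products of neutrophils, whose marker transcripts were mostly scarce, and the number of neutrophils was not measured. Of 19 neutrophil genes outside the set, 3 were tested, and their summed level was 33.9 to 41.8 FPKM in ICI and 38.1 to 51.8 in Scop. Ly6g, the surface antigen of mouse neutrophils, was at 0 in every library, the granule protease genes Elane and Prtn3 had at most 1 fragment in any library and Ctsg at most 3, and the chemokine receptor gene Cxcr2 at most 10. Most of the sum came from Itgam, which macrophages also express, and from S100a9, an alarmin subunit that epithelia also make (9.38 ± 2.35 against 20.3 ± 3.63 FPKM, log2 fold change -1.04, SE 0.16, limma adjusted p = 0.104, but 0.0467 without Scop replicate 4, and from 0.0467 to 0.310 over all alternatives). The groups did not overlap for S100a9, and they overlapped for Ltf and Lcn2. The difference between S100a9 and either gene was not tested. Lactoferrin is also a product of the lacrimal gland, and 14 genes of lacrimal and meibomian gland together stood at 2596 to 2881 FPKM in ICI and 2837 to 3145 in Scop. Most of that sum was Aqp5 (2520 to 3062 FPKM over the 8 libraries), a water channel gene that corneal epithelium also expresses. The other 4 tested genes of the list were Fads2, Scd1, Soat1 and Amy1, and the remaining 9 were below 0.5 FPKM on average. Of the secretory genes among these 9, Pip had at most 1 fragment in any library, Dnase1 at most 2 and Car6 at most 34. The part of gland transcripts in the values of Ltf was not tested.

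The WAP-domain proteins, small secreted proteins whose fold is held by 4 disulfide bonds, ranged from abundant to barely detected. Wfdc2 (chromosome 2, 164562715 to 164568510), an epithelial protein known from airways and glands, stood at 72.8, 73.1, 78.4 and 78.1 FPKM in ICI and at 67.8, 71.5, 71.8 and 73.3 in Scop. The 2 highest libraries were ICI replicates 3 and 4 and the lowest was Scop replicate 1, and the groups overlapped only because Scop replicate 4 lay above ICI replicates 1 and 2. The means were 75.6 ± 3.11 and 71.1 ± 2.34 FPKM, with a log2 fold change of 0.09 (SE 0.05, 95% interval -0.02 to 0.19, limma unadjusted p = 0.0938, adjusted p = 0.497). This was the smallest p of the set, and with any 1 library left out the log2 fold change stayed between 0.07 and 0.11. The upper end of the interval is a 1.14-fold difference.

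Slpi encodes the secretory leukocyte protease inhibitor, which blocks neutrophil elastase and cathepsin G and is itself antimicrobial (chromosome 2, 164354070 to 164356507). It stood at 6.62, 7.81, 7.48 and 7.05 FPKM in ICI and at 8.29, 5.46, 3.65 and 8.17 in Scop. The ICI libraries lay close together, and the Scop libraries lay on both sides of them. The means were 7.24 ± 0.516 and 6.39 ± 2.25 FPKM, with a log2 fold change of 0.21 (SE 0.19, 95% interval -0.22 to 0.64, limma adjusted p = 0.692). The lowest value was that of Scop replicate 3, the library with the fewest stromal transcripts, and without it the log2 fold change was 0.0062. The part of the stromal share in this value was not tested beyond leaving that library out.

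Wfdc12, another WAP-domain gene (chromosome 2, 164189231 to 164190558), was close to absent. It had 1, 2, 1 and 1 fragments in ICI and 1, 1, 8 and 0 in Scop. Scop replicate 3 alone held 8 of the 10 Scop fragments (95% Poisson interval 3.45 to 15.8). The means were 0.0412 ± 0.0160 and 0.0910 ± 0.140 FPKM, and the exact permutation test, two-sided and unadjusted, gave p = 0.971. The library with the 8 fragments is the one in which the summed conjunctival markers, mostly Krt13, stood highest. Whether Wfdc12 and these markers moved together was not tested.

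Pigr encodes the receptor that carries dimeric immunoglobulin A across epithelia and is released with it as secretory component (chromosome 1, 130826684 to 130852249). It stood at 1.25, 1.82, 1.58 and 1.27 FPKM in ICI and at 1.53, 1.35, 1.22 and 1.21 in Scop, with the highest library in ICI and the lowest in Scop. The means were 1.48 ± 0.273 and 1.33 ± 0.149 FPKM, with a log2 fold change of 0.09 (SE 0.09, 95% interval -0.12 to 0.30, limma adjusted p = 0.742). Between 162 and 277 fragments lay behind each value. Its cargo was hardly measured: Jchain, the joining chain of dimeric immunoglobulin A, had at most 4 fragments in any library, and Igha and Igkc were not analysed here. Of 3 other tested genes of mucosal antibody transport, 2 had negative and 1 a positive value, and Fcamr, an Fc receptor gene for immunoglobulins A and M, had the smallest p (log2 fold change -0.19, SE 0.08, limma adjusted p = 0.406).

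**Figure D2:**
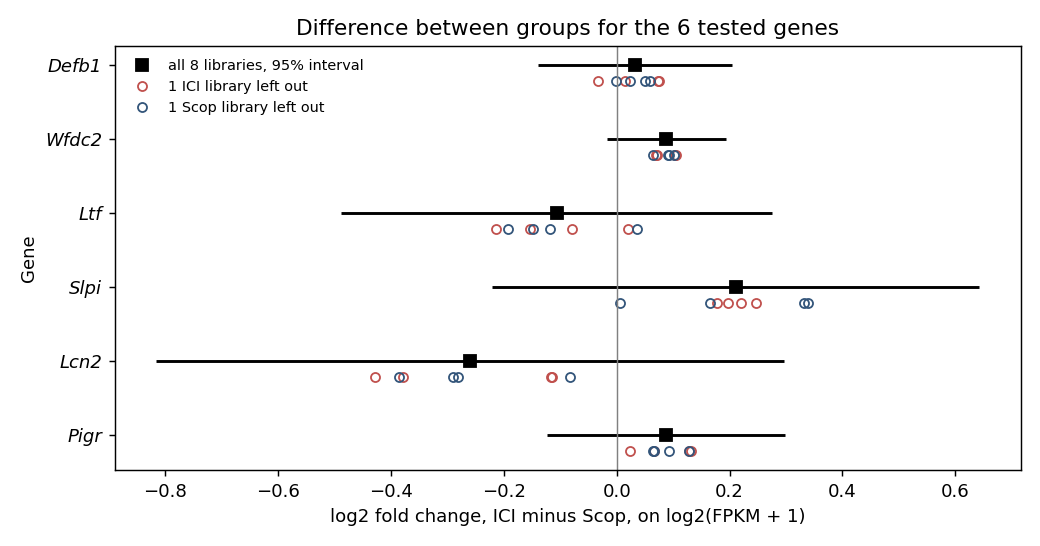
Log2 fold change (ICI minus Scop, on the log2(FPKM + 1) scale) of the 6 tested genes, with squares and lines for the value and 95% interval from all 8 libraries and open circles for the value with 1 library left out. Every interval spans 0, that of Wfdc2 is the narrowest (-0.02 to 0.19) and that of Lcn2 the widest (-0.82 to 0.30).

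The genes differed in how far replicate libraries of 1 group spread. The within-group SD of log2(FPKM + 1) was 0.45 for Lcn2, 0.34 for Slpi and 0.30 for Ltf, larger than in 98.4%, 96.2% and 95.5% of the tested genes within 2-fold of their mean level. It was 0.12 for Defb1 and 0.13 for Pigr (78.6% and 38.6% of such genes were lower), and 0.05 for Wfdc2 (14.8%). Counting error was a small part of this for Lcn2: its coefficient of variation was 42.5% in ICI and 34.1% in Scop, where its mean number of fragments gives 8.30% by counting alone. The corresponding values for Ltf were 22.9%, 24.6% and 3.36%, and for Wfdc2 4.11%, 3.30% and 2.24%. For Slpi the spread lay in 1 group, 7.12% in ICI and 35.1% in Scop, with 5.30% by counting. For Defb1 the coefficient of variation was larger in ICI than in Scop, where it was 5.77% in Scop, with 1.23% by counting.

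**Figure D3:**
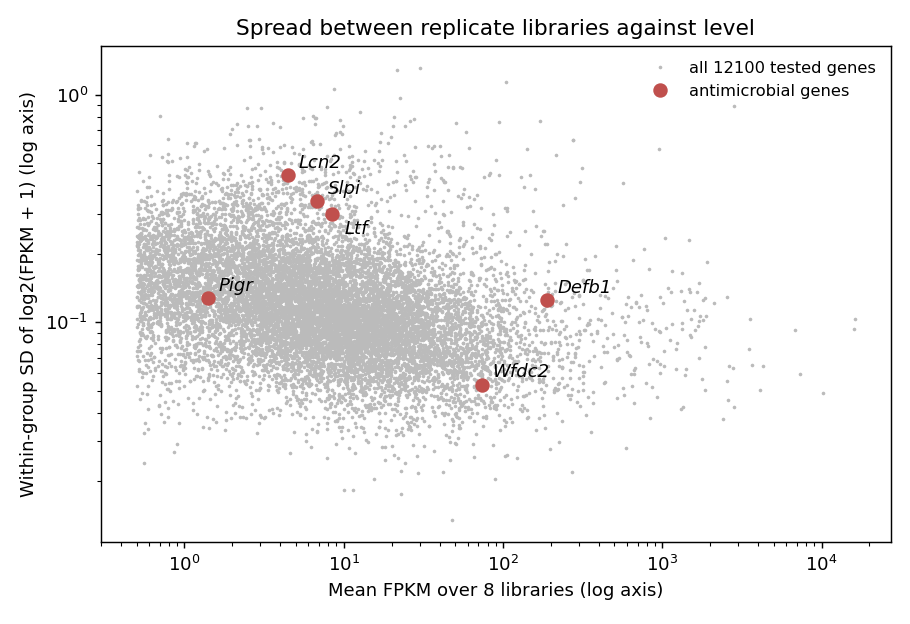
Within-group SD of log2(FPKM + 1) against mean FPKM, both on log axes, for all 12100 tested genes (grey) and the 6 tested antimicrobial genes (red). Lcn2, Slpi and Ltf lie near the upper edge of the cloud at their level, and Wfdc2 lies in its lower part.

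The genes did not vary as a block across libraries. Over the 8 libraries the Pearson correlations of log2(FPKM + 1) between pairs of the 6 genes ran from -0.76 (Lcn2 and Pigr) to 0.71 (Lcn2 and Defb1), as a description of 8 points that share their libraries. Lcn2 and Defb1 were both higher in ICI replicates 1 and 4 than in ICI replicates 2 and 3, and Pigr was lower there. The lengths behind the FPKM were 853 bases for Lcn2, 916 for Defb1 and 3849 for Pigr. Wfdc2 was shorter still, at 713 bases, with correlations of -0.16 with Lcn2 and -0.08 with Defb1. The part of length in these correlations was not tested. Slpi and Ltf ran against each other (-0.65), with Scop replicate 3 the lowest library for Slpi and the highest for Ltf. The iron-binding pair itself had a correlation of 0.27, and the ratio of Ltf to Lcn2 ranged from 1.07 in Scop replicate 2 to 3.49 in ICI replicate 2.

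**Figure D4:**
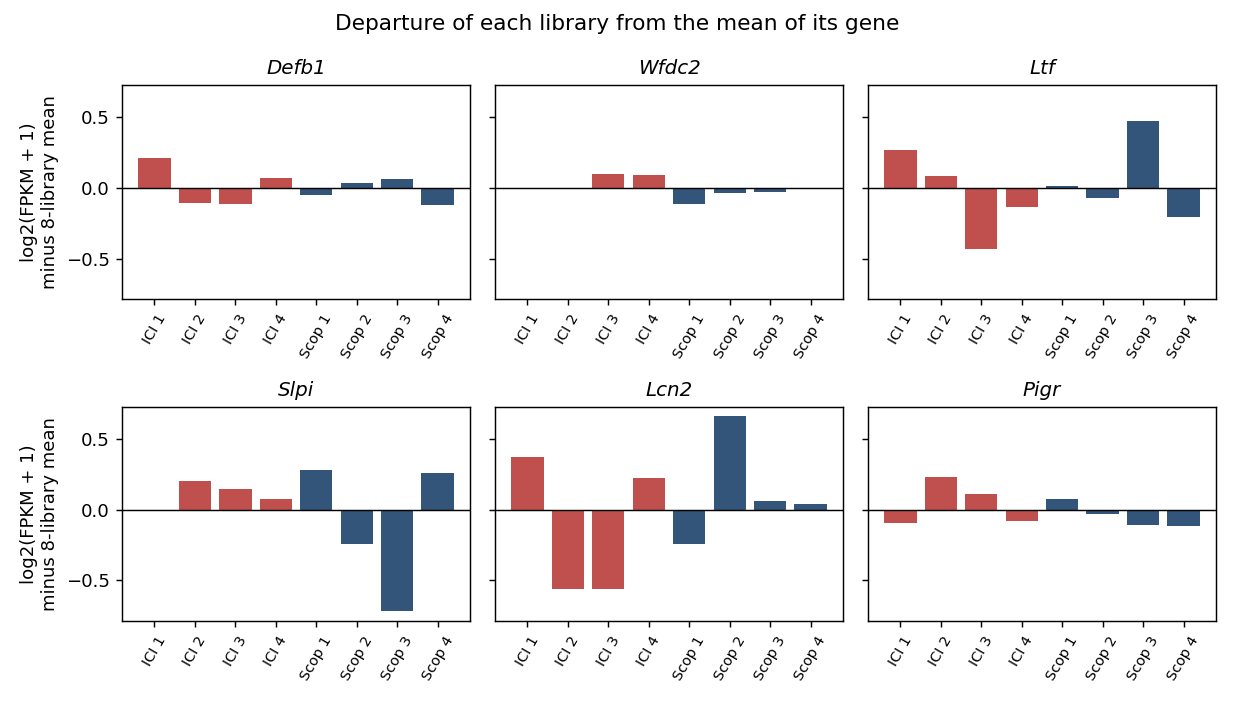
Departure of each library from the 8-library mean of log2(FPKM + 1), one panel per tested gene, with ICI bars in red and Scop bars in blue. Lcn2 splits the ICI libraries into a high pair (replicates 1 and 4) and a low pair (2 and 3), and Scop replicate 3 is the lowest bar for Slpi and the highest for Ltf.

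Outside the set, the genes whose pattern over the 8 libraries was most like that of each member were searched among 7176 or 7177 tested genes of at least 5 FPKM. For Lcn2 they were Dynll1, a dynein light chain gene (Pearson r = 0.98), Rps29, a ribosomal protein gene (0.98), and Cox17, a copper chaperone gene of the mitochondrion (0.96). For Slpi they were Tgfbr2, a receptor gene for TGF-β (0.97), Anapc4 and Zfpl1 (0.96 and 0.95). Plac8, Ocm and Smox were closest to Ltf (0.95, 0.94 and 0.92), and Tada2b, Fstl3 and Ppp1r15b to Defb1 (0.94, 0.93 and 0.91). Ptprk, Lsamp and Chd2 were closest to Pigr (0.97, 0.96 and 0.95), and Tdrp, Esd and Mrps30 to Wfdc2 (0.94, 0.92 and 0.88). The genes named for Pigr were 7097 to 9665 bases long, those for Lcn2 322 to 2007 and those for Defb1 1953 to 5588. The part of length in these patterns was not tested. With 8 libraries and so many genes, high values are found for most genes, and the names describe these libraries only.

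The 3 WAP genes of the set lie in 1 region of chromosome 2, in which 379 kb from Wfdc12 to Wfdc2 hold 18 protein-coding genes of the RefSeq annotation. Of these 18 genes 11 were matched to rows and 8 were tested, none of them with an unadjusted limma p under 0.05. Over all tested genes that share was 12%, and 8 genes are too few to set the region apart from it. Levels changed steeply along it. Wfdc12 and its neighbour Wfdc15b were below 0.2 FPKM on average in both groups, Slpi stood near 7 FPKM, and Wfdc2, 206 kb beyond Slpi, above 70. Between Slpi and Wfdc2 the matrilin gene Matn4 was at 26.7 ± 3.48 against 21.6 ± 6.91 FPKM and the syndecan gene Sdc4 at 236 ± 12.3 against 235 ± 8.15. The choice of these neighbours was made with their values in view.

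**Figure D5:**
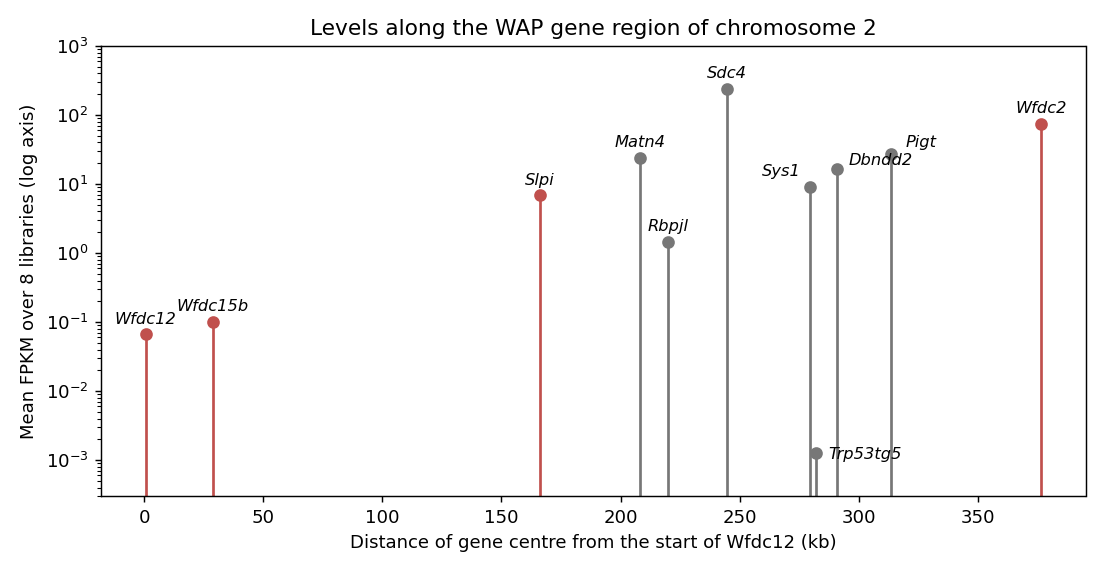
Mean FPKM over the 8 libraries, on a log axis, of the protein-coding genes between Wfdc12 and Wfdc2 against the distance of each gene's centre from the start of Wfdc12 in kb, with WAP genes in red and other genes in grey. Wfdc12 and Wfdc15b lie at or below 0.1 FPKM, Slpi near 7 and Wfdc2 near 73.

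The promoters are shown because the C/EBP factor gene Cebpd was among the genes with the smallest p in these libraries, and Lcn2 and Ltf are textbook targets of C/EBP factors in other cells. Cebpd stood at 3.28, 3.33, 3.65 and 4.30 FPKM in ICI and at 5.68, 7.96, 7.27 and 8.74 in Scop, without overlap (log2 fold change -0.85, SE 0.12, limma adjusted p = 0.0788, so it did not pass). Without Scop replicate 1 its adjusted p was 0.045, and over all alternatives it ranged from 0.045 to 0.310. The sequences below are the 250 bases before the RefSeq gene start, 5′ to 3′ on the gene's strand, in build GRCm38.p6, and capitals mark matches to TTGCNNAA or, on the other strand, TTNNGCAA.

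Lcn2, chr2:32387740-32387989, minus strand:
Lcn2: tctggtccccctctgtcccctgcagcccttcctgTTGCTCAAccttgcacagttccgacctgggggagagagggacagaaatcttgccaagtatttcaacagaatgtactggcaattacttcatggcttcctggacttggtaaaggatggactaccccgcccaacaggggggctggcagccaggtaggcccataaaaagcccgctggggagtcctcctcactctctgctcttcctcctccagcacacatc
Ltf, chr9:111019042-111019291, plus strand:
Ltf: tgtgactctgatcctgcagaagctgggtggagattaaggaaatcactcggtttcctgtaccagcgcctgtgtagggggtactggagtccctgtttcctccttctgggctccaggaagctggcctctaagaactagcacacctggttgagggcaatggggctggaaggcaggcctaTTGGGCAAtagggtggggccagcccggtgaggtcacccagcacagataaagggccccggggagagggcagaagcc
Slpi, chr2:164356508-164356757, minus strand:
Slpi: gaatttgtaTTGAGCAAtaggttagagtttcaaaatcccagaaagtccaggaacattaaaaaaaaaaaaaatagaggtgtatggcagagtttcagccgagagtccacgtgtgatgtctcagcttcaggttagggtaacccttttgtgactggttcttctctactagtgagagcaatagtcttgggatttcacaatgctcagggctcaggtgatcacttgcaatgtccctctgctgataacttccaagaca
Wfdc2, chr2:164562465-164562714, plus strand, shown as the promoter of the gene with the steadiest level:
Wfdc2: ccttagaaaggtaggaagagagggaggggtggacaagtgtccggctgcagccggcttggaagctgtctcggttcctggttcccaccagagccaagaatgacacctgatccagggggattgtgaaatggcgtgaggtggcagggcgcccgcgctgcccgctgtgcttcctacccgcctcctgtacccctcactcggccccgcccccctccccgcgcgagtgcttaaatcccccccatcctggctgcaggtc

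RefSeq's promoter table held 6 of the 8 genes, without Defb1 and Defb14, and 4 of these 6 held the C/EBP letters, against 9.56% of all 32851 promoters of the table in the same window. The matches were TTGCTCAA, from 216 bases before the start of Lcn2, TTGGGCAA, from 75 bases before that of Ltf, TTGAGCAA, from 241 bases before that of Slpi, and TTGTGCAA, from 238 bases before that of Wfdc12. Pigr and Wfdc2 held none in this window. Camp and Reg3g, the genes of the set without a matched row, had RefSeq promoters too and held no C/EBP letters. A looser pattern for an NF-kB site, on either strand (3 G, any 5 bases, then 2 C), was in 5 of the 6 and in 45.8% of all promoters. The promoter of Reg3g held it as well, and that of Camp did not. A match is a description of letters, and the search was chosen after the values of Cebpd were known. The genes with C/EBP letters had log2 fold changes of -0.26 (Lcn2), -0.11 (Ltf) and 0.21 (Slpi), and none passed the test.

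The genes around the set were described by lists of related function, none of which held a gene that passed the adjusted test. The list of inducers of antimicrobial genes (interleukin 17 and interleukin 36 signalling, NF-kB, C/EBP and epithelial factors) also holds genes that restrain such signalling, Zc3h12a and Il36rn among them. Its signs therefore mix genes of opposite sense. Of its 31 tested genes, 26 had negative and 5 positive values, with a median log2 fold change of -0.10. Over all tested genes 55.4% were negative and the median was -0.02. At an unadjusted p under 0.05, 7 of the 31 were lower and 1 was higher in ICI, where 7.46% and 4.56% of all tested genes were, but after median-ratio scaling 3 were lower and 1 higher, and without Scop replicate 3 it was 3 and 2. Cebpd had the smallest p, and Zc3h12a, a ribonuclease gene that restrains interleukin 17 signalling, followed (9.57 ± 0.789 against 13.1 ± 1.82 FPKM, log2 fold change -0.41, SE 0.10, limma adjusted p = 0.185). The gene higher in ICI was Il36rn, which encodes the antagonist of the interleukin 36 receptor (3.86 ± 0.702 against 2.63 ± 0.304 FPKM, log2 fold change 0.41, SE 0.11, limma adjusted p = 0.235, no overlap). Il17ra, the receptor subunit, was at 3.32 ± 0.143 against 3.67 ± 0.580 FPKM, and Il17a, its ligand, had at most 4 fragments in any library.

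Of other antimicrobial genes, 15 could be tested, with 8 negative and 7 positive values (median -0.13, but 0.03 over the 6 of them tested with a filter of 5 FPKM), and 5 of the 15 were lower and 0 higher at an unadjusted p under 0.05, against 7.46% and 4.56% of all tested genes. Adm, which encodes the antimicrobial and vasoactive peptide adrenomedullin, had the smallest p (2.53 ± 0.340 against 3.59 ± 0.232 FPKM, log2 fold change -0.38, SE 0.08, limma adjusted p = 0.179). Duox2, an oxidase that makes hydrogen peroxide at epithelial surfaces, was at 0.878 ± 0.125 against 1.56 ± 0.454 FPKM, and Duoxa2, its maturation factor, at 2.06 ± 0.598 against 3.84 ± 1.31. Their log2 fold changes were -0.43 (SE 0.12, limma adjusted p = 0.239) and -0.65 (SE 0.19, adjusted p = 0.267). Adm and Duox2 had no overlap between the groups, and Duoxa2 overlapped.

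Among further WAP and Kunitz-type inhibitors 4 were tested, 3 with negative and 1 with a positive value (median -0.02, between -0.04 and 0.01 with 1 library left out). Wfdc18, a secreted WAP-domain gene, stood at 0.934, 1.39, 0.700 and 1.66 FPKM in ICI and at 3.90, 6.91, 3.30 and 2.45 in Scop. The groups did not overlap, with a log2 fold change of -1.20 (SE 0.23, limma adjusted p = 0.162), and between 15 and 148 fragments lay behind each. Transcripts of the proteases that Slpi blocks were scarce, as given above for Elane and Ctsg, and the proteins were not measured. Of 14 tested serine proteases 8 had negative and 6 positive values (median -0.02, between -0.06 and 0.03 with 1 library left out), with the membrane protease gene St14, which encodes matriptase, at 29.7 ± 1.47 against 34.6 ± 2.93 FPKM (log2 fold change -0.21, SE 0.07, limma adjusted p = 0.285). Plat, the gene of tissue plasminogen activator, was at 12.4 ± 0.535 against 15.1 ± 2.35 FPKM (log2 fold change -0.25, SE 0.09, limma adjusted p = 0.340), and for both genes the groups did not overlap.

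For the remaining lists, 21 other epithelial antiproteases had 12 positive and 9 negative values (median 0.07, but -0.01 without ICI replicate 1). At an unadjusted p under 0.05, 2 were lower and 1 was higher in ICI, near the shares of 7.46% and 4.56% over all tested genes. Serpinb2, which encodes the plasminogen activator inhibitor 2, had the smallest p (0.537 ± 0.329 against 2.17 ± 0.921 FPKM, log2 fold change -1.02, SE 0.21, limma adjusted p = 0.166), without overlap. Csta1, a stefin that inhibits cysteine proteases, was at 51.7 ± 7.18 against 41.7 ± 1.64 FPKM (log2 fold change 0.30, SE 0.08, limma adjusted p = 0.256), without overlap. The acute-phase inhibitor gene Serpina3n was at 3.94 ± 1.76 against 7.03 ± 1.81 FPKM (-0.74, SE 0.23, limma adjusted p = 0.290). Of 18 tested genes of iron transport and siderophore handling outside the set, 13 had positive and 5 negative values (median 0.08, and 0.0008 without Scop replicate 3). At an unadjusted p under 0.05, 3 were higher and 0 lower in ICI, against 4.56% and 7.46% of all tested genes. Positive values made up 44.6% of all tested genes. Without Scop replicate 3, 19 of the list were tested, 10 with positive and 9 with negative values, and 3 were higher and 1 lower. Hfe, whose product regulates iron uptake, had the smallest p (2.44 ± 0.309 against 1.62 ± 0.436 FPKM, log2 fold change 0.40, SE 0.12, limma adjusted p = 0.282), and Heph, a ferroxidase gene, followed (1.52 ± 0.195 against 1.10 ± 0.188 FPKM, log2 fold change 0.26, SE 0.09, limma adjusted p = 0.313). Among other genes of iron handling, the siderophore-lipocalin receptor gene Slc22a17 was at 1.24 ± 0.355 against 0.914 ± 0.230 FPKM and the transferrin receptor gene Tfrc at 8.02 ± 3.82 against 9.32 ± 3.12.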

How the data were processed

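RNA of mouse corneas was measured in 8 libraries, 4 ICI and 4 Scop. Per the labels' protocols, total RNA was purified with a Qiagen kit and a Vazyme kit gave libraries for an Illumina NovaSeq. The tools named are fastp, HISAT2 and HTSeq, and the build mm10, per the submitters' processing notes. Their roles and versions, the annotation and the strandedness are not stated in those notes as used here. The authors deposited FPKM values, 1 column per library, with no scaling between libraries stated. Columns were matched to samples by title.

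Since 1 fragment of a gene is worth a fixed FPKM in a library, whole fragments were worked out from ratios between libraries (relative tolerance 5e-13, whole within 0.01). The depth was the number that made gene lengths whole, which held for 96.6% of genes above 0. It held for 99.991% once the fragments of the other genes were multiplied by a small whole factor, where one made the length whole. Summed fragments then lay within 0.0988% of the depth.

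The test was limma 3.58.1, run under R 4.3.3 with lmFit and a trended eBayes (two-sided, Benjamini-Hochberg, threshold 0.05). It was fitted on log2(FPKM + 1) over all 12100 genes averaging 0.5 FPKM or more, and tried on simulated data. There it called 4 of 50 genes changed 1.25-fold and 29 of 50 changed 1.5-fold. At 2-fold it called 42 of 47 and at 3-fold 47 of 48, with 2 false calls. The log2(FPKM + 1) scale understates the change of low genes. The 2 low members had exact permutation tests (SciPy 1.17.1). Alternatives were other pseudocounts, filters, scalings, eBayes settings, limma-voom on recovered fragments, a block for the replicate number, and each library left out in turn. Named genes were the set, genes from among the 4 with the smallest p of each list of related function, the first always included, fixed partner genes, and the 3 genes most like each tested member by Pearson r. The members and lists were chosen with earlier results of these data known. The replicate numbers were not taken as pairs, since the labels give no shared source for equal numbers. As a check, same-numbered libraries had correlations of their deviations from the group means of 0.30, -0.03, 0.13 and 0.11 (replicates 1 to 4). The best-correlated Scop library had the same number for ICI replicates 1 and 3 and another number for replicates 2 and 4.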

Additional observations from a re-analysis of the deposited data

Results flagged for a closer look

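Both groups of each of the 8 genes, 16 in all, were searched for a library far from the other 3 (Dixon's criterion at its 95% level), which chance meets in about 1 of 20 groups. It was met by Wfdc12 alone. In Scop replicate 3 Wfdc12 was at 0.299 FPKM (8 fragments), with the other Scop libraries at 0 or 1 fragment. In ICI replicate 2 it was at 0.0652 FPKM, where the gap is between 2 fragments and 1.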

How the results depend on the processing

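No gene of the set passed under any alternative, and the lowest limma adjusted p of the 6 tested genes over all of them was 0.446. Of 106 recomputed log2 fold changes, 102 kept their direction. With 1 library left out, Defb1 ranged from -0.0327 to 0.0753 and Ltf from -0.2138 to 0.035. The 4 that turned were Defb1 without ICI replicate 1 (-0.0327) or Scop replicate 4 (-0.0021), and Ltf without ICI replicate 3 (0.0206) or Scop replicate 3 (0.035). With 1 library left out, the genes higher in ICI at an adjusted p under 0.05 numbered 0 to 4 and the genes lower 0 to 2, none of them in the set, and by mean FPKM 4 to 6 of the 8 genes were higher and 2 to 4 lower in ICI. Without a filter 862 genes were higher at an unadjusted p under 0.05 and with a filter of 5 FPKM 318, against 552, since other numbers of genes were tested. The filter of 5 FPKM left Lcn2 and Pigr untested. With the replicate number as a replicate block, 0 genes passed in either direction and the unadjusted counts were 643 higher and 869 lower. The labels give no shared source for equal numbers. By limma-voom on recovered fragments, 0 genes passed either way, and 519 were higher and 935 lower unadjusted. Leaving out Scop replicate 3 took the median of the keratocyte list from 0.32 to 0.05. Depth limits Defb14 and Wfdc12, with at most 14 and 8 fragments per library.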

Other observations

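Among the other antimicrobial genes listed, the most abundant had a higher mean level than Defb1. Pglyrp1, which encodes a peptidoglycan recognition protein, stood at 210.4, 255, 227 and 252 FPKM in ICI and at 171, 249, 343 and 190 in Scop (236 ± 21.1 against 238 ± 77.4). Both the highest and the lowest library were in Scop. Its relative Pglyrp4 was at 9.07, 7.19, 6.56 and 8.26 FPKM in ICI and at 10.7, 9.80, 17.1 and 9.34 in Scop, without overlap (log2 fold change -0.51, SE 0.17, limma adjusted p = 0.297). Both genes were highest in Scop replicate 3. The conjunctival keratin gene Krt13 was also highest there, at 1468 FPKM against 865 to 1013 in the other libraries, and the part of this in the values of Pglyrp1 and Pglyrp4 was not tested.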
